A study of Homo sapiens with 18 samples.

Results

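The genes described here are the interferons measured in a human endothelial line and the chains of the receptors that bind interferons: IFNB1, IFNL1, IFNL2, IFNL3, IFNAR1, IFNAR2, IFNLR1, IL10RB, IFNGR1 and IFNGR2. They were chosen by symbol, as the rows of the gene count table whose symbol equals 1 of these names, and all 10 were found among 62754 genes. EA.hy926 is a hybrid line made by fusing umbilical vein endothelial cells with the lung epithelial line A549. The cells received transfection reagent alone (Mock), a non-targeting siRNA (siNT) or a pool of siRNAs against ELMO1 (siELMO1), the siRNAs at 10 nM, and 48 h later 1 μg/ml of poly(I:C), a double-stranded RNA mimic that stimulates the sensor TLR3. By the study's methods, cells were kept in low serum overnight before poly(I:C). RNA was taken before poly(I:C) (0 h) or 24 h after it from 3 libraries per group, 18 in all. Every 24 h sample received poly(I:C), so a response to poly(I:C) cannot be told apart from a further 24 h in culture. In bulk RNA of this kind, fewer cells making a transcript and less of it per cell cannot be told apart either.

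Cells that sense double-stranded RNA switch on type I interferon, of which IFNB1 (interferon beta) is the form made by most tissue cells, and the type III interferons, or interferon lambdas, encoded by IFNL1, IFNL2 and IFNL3. The switch is thrown by interferon regulatory factors (IRFs) and NF-kB at short promoter sequences. Type I interferon signals through IFNAR1 with IFNAR2, type III through IFNLR1 with IL10RB, and interferon gamma, a product of lymphocytes, through IFNGR1 with IFNGR2. Each pair passes its signal to JAK kinases and STAT factors.

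Promoter sequences of 3 of the interferon genes are shown because all 4 were at or below 3 counts in every library before poly(I:C) and were read in all transfections after it, and the fourth, IFNL3, is nearly a copy of IFNL2 there. Each is the 250 bases before the annotated start, in the gene's own direction, from RefSeq on GRCh38.p14, and 9 of the 10 genes had an entry. Capitals mark matches, on either strand, to the IRF core AANNGAAA and to the NF-kB consensus.
IFNB1: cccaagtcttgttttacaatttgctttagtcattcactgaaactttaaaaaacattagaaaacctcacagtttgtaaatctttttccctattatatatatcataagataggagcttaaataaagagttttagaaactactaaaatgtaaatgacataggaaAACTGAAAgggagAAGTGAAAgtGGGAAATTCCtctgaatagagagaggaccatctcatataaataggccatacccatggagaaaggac
IFNL1: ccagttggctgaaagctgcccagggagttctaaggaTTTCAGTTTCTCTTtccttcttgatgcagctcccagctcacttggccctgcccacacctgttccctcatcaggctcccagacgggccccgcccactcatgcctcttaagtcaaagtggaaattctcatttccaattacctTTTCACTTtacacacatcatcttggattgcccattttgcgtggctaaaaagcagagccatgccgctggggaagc
IFNL2: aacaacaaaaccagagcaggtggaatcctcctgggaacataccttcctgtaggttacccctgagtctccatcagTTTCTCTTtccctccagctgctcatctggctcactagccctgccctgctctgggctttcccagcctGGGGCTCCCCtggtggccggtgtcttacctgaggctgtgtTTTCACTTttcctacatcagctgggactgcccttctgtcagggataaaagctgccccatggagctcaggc
The IFNB1 window is chr9:21077943-21078192 on the minus strand, the IFNL1 window is chr19:39296157-39296406 on the plus strand and the IFNL2 window is chr19:39268146-39268395 on the plus strand. IFNB1 had IRF core matches starting at -89 and -76 and an NF-kB match at -66, counted back from the start. In IFNL1 there were 3 IRF core matches, 2 of them overlapping, and no NF-kB match, and in IFNL2 there were 2 and 1. The IFNL3 window at chr19:39245251-39245500 on the minus strand differed from that of IFNL2 by 1 substitution, C31T, with IFNL2's base first and positions counted from 1 at the window's 5′ end. All 4 interferon genes thus had a window with an IRF core match, among 5 windows in all. A second IFNL3 window, at chr19:39245007-39245256, had no match to either motif. None of the 5 receptor genes in the table had an IRF core match in their 7 windows, and 20.3% of 35116 promoter windows of this length hold one. The NF-kB consensus was in 9.96% of the windows. IFNGR2 was the only receptor gene with a match to it. These matches describe letters only.

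IFNB1 was at or near 0 before poly(I:C) and was the most abundant of the interferon transcripts after it. The gene (ENSG00000171855.7) lies at chr9:21077104-21077942 on the minus strand of GRCh38 and overlaps no other annotated gene. At 0 h its counts were 0 in all Mock and siNT libraries and 0, 0 and 3 in siELMO1. At 24 h they were 1069, 1288 and 1604 in Mock, 89, 80 and 109 in siNT, and 383, 355 and 581 in siELMO1. The 3 groups did not overlap at 24 h, with Mock highest, siELMO1 between and siNT lowest, and 1 siELMO1 library stood above the other two.

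In CPM (counts per mega-count of library, scaled by trimmed mean of M-values), IFNB1 at 24 h was 23.0 ± 3.85 in Mock, 1.68 ± 0.240 in siNT and 7.64 ± 3.43 in siELMO1 (SD, n = 3). Against 3 read pairs in each 0 h library, an upper limit taken for a count of 0, these are rises of at least 277-fold in Mock and 18.1-fold in siNT. The 3 pairs are taken as 6 counts at 2 counts a pair, and a count of 0 does not exclude a higher level. No bound is given for siELMO1, where 1 library at 0 h had counts. The bounds cover counting error only. Levels at 24 h were 13.7-fold lower in siNT than in Mock (log2 difference -3.78 ± 0.32 SE, adjusted p = 4.91e-07, edgeR's quasi-likelihood test with Benjamini-Hochberg adjustment over all genes, as for every adjusted p here). They were 4.53-fold higher in siELMO1 than in siNT (2.18 ± 0.31, edgeR adjusted p = 5.1e-05) and 3.02-fold lower in siELMO1 than in Mock (-1.60 ± 0.29, edgeR adjusted p = 0.000506). Without the high siELMO1 library, replicate 3, the log2 difference from siNT was 1.75 and that from Mock -2.02.

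IFNL1, the most abundant of the interferon lambdas in these cells, followed the same order. This gene (ENSG00000182393.3, chr19:39296407-39298673, plus strand) had a count of 0 in all 9 libraries at 0 h. At 24 h its counts were 407, 458 and 484 in Mock, 24, 38 and 44 in siNT, and 170, 134 and 188 in siELMO1, again without overlap between groups. Mean levels were 7.87 ± 0.367, 0.635 ± 0.160 and 2.80 ± 0.859 CPM (SD, n = 3), rises of at least 94.7-fold, 6.86-fold and 23.9-fold over 3 read pairs in each 0 h library.

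At 24 h IFNL1 was 12.3-fold lower in siNT than in Mock (log2 -3.62 ± 0.29 SE, edgeR adjusted p = 9.55e-07). It was 4.38-fold higher in siELMO1 than in siNT (2.13 ± 0.28, edgeR adjusted p = 5.43e-05) and 2.81-fold lower in siELMO1 than in Mock (-1.49 ± 0.26, edgeR adjusted p = 0.000589). IFNL1 reached the filter of at least 1 CPM in 1 library only in Mock and siELMO1 at 24 h, with siNT at most at 0.769 CPM. Its p-values against siNT are therefore not read as support. IFNB1 and IFNL1 kept a like proportion to each other. In TPM, the share of a library's transcripts after correction for transcript length, IFNB1 was 2.70 ± 0.329 times IFNL1 in Mock, 2.55 ± 0.775 times in siNT and 2.46 ± 0.387 times in siELMO1 (SD, n = 3), differences smaller than the spread between libraries.

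**Figure D1:**
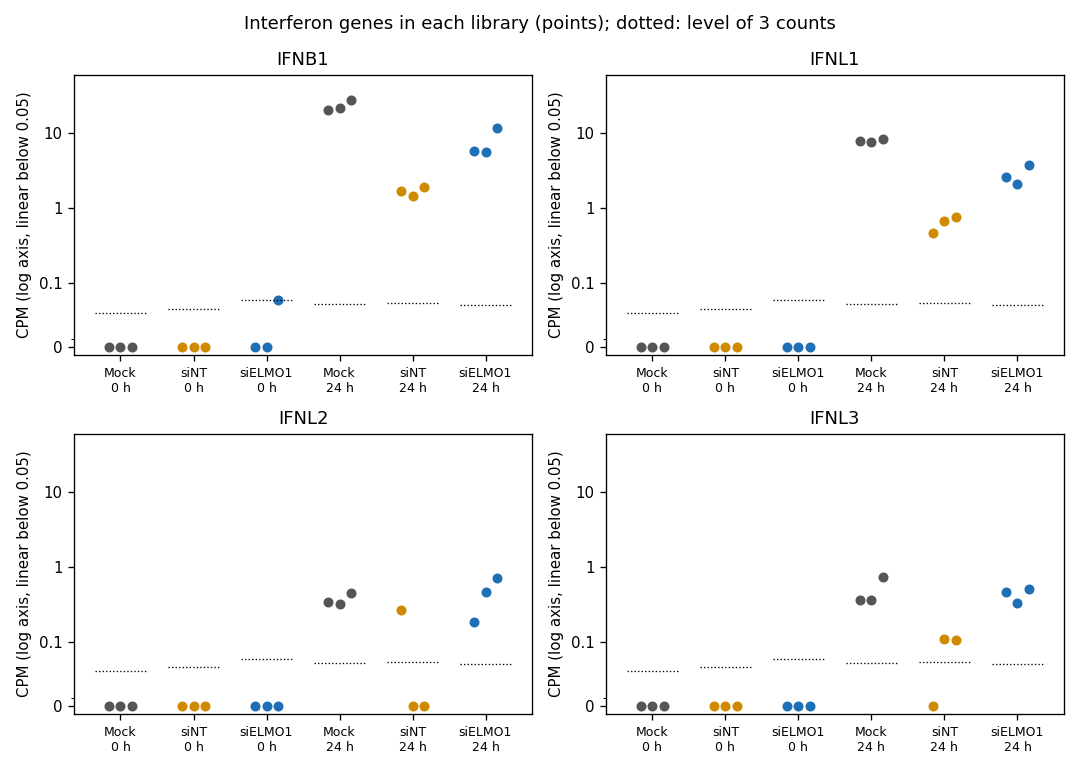
Level of the 4 interferon genes in CPM (log axis, linear below 0.05) in each of the 18 libraries, 1 point per library, by transfection and time, with dotted lines at the level of 3 counts. IFNB1 and IFNL1 lie highest in Mock, between in siELMO1 and lowest in siNT at 24 h, while IFNL2 and IFNL3 in siELMO1 overlap those in Mock.

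The other 2 interferon lambda genes, IFNL2 (ENSG00000183709.8, chr19:39268396-39270188, plus strand) and IFNL3 (ENSG00000197110.10, chr19:39243455-39245250, minus strand), were read at far lower levels and did not reach the filter on low counts. Their transcripts are 98.0% identical over 951 aligned bases, so how reads were divided between them is uncertain, and their sum is the safer measure. IFNL2 had counts of 18, 19 and 26 in Mock at 24 h, 14, 0 and 0 in siNT, and 12, 30 and 35 in siELMO1. IFNL3 had 19, 22 and 43 in Mock, 0, 6 and 6 in siNT, and 30, 21 and 25 in siELMO1. Neither gene had a count in any library at 0 h, and in siNT the 2 genes took turns at 0.

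Over the 3 transfections the mean rise on the log2(CPM + 0.1) scale, which understates changes of low genes, was 1.72 for IFNL2 and 1.86 for IFNL3. In the exact two-sided permutation test of the time labels within transfection the p was 0.0025 for IFNL2 and 0.001 for IFNL3, or 0.00375 and 0.003 after Benjamini-Hochberg adjustment over 3 genes, where 0.00025 is the smallest p possible. Summed over both genes, the 24 h counts were 37, 41 and 69 in Mock, 14, 6 and 6 in siNT, and 42, 51 and 60 in siELMO1. Scaled to library size, the sums were 0.704, 0.678 and 1.18 CPM in Mock, 0.267, 0.107 and 0.105 in siNT, and 0.636, 0.792 and 1.20 in siELMO1. On that scale siELMO1 overlapped Mock, and siNT lay below both.

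The sum reached 0.854 ± 0.283 CPM in Mock, 0.160 ± 0.0931 in siNT and 0.875 ± 0.290 in siELMO1 (SD, n = 3). It was lower in siNT than in Mock by a log2 difference of -2.42 ± 0.55 (SE, edgeR adjusted p = 0.00335) and higher in siELMO1 than in siNT by 2.44 ± 0.55 (edgeR adjusted p = 0.00288). The sum passed the filter only through replicate 3 of Mock and of siELMO1 at 24 h (1.18 and 1.20 CPM), with siNT at most at 0.267 CPM. These p-values against siNT are therefore not read as support. Between siELMO1 and Mock the difference was 0.03 ± 0.48 (edgeR adjusted p = 0.967). Whether IFNL2 and IFNL3 differ from IFNB1 and IFNL1 in this last comparison was not tested.

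Of 18 further interferon genes, among them the alpha family, interferon omega, kappa, gamma and IFNL4, 14 were at or below 3 counts in every library and 9 were at 0 in all. Only IFNE, an interferon best known from epithelium of the reproductive tract, passed the filter. Its level was 0.632 ± 0.231 CPM in Mock at 0 h and 1.07 ± 0.371 at 24 h (SD, n = 3), and none of the 3 poly(I:C) responses passed the test (log2 0.76, 0.62 and 0.29 in Mock, siNT and siELMO1, edgeR adjusted p = 0.0633, 0.127 and 0.522). IFNE was lower in siELMO1 than in siNT at 0 h (-1.05 ± 0.35 SE, edgeR adjusted p = 0.0151) and at 24 h (-1.38 ± 0.34, edgeR adjusted p = 0.0027). That is the opposite direction to IFNB1 and IFNL1 at 24 h. Summed over the 18 genes, levels at 0 h were 0.459 to 0.752 CPM in siELMO1 and 1.06 to 1.20 in siNT. At 24 h the sums were 0.667 to 1.08 and 1.66 to 2.20 CPM. IFNE thus did not reach 1 CPM in siELMO1 at 0 h, and its p-values against siNT are not read as support.

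The receptor chains were transcribed before any stimulus, with 1 exception. Per transcript length, in Mock at 0 h, IFNGR2 was highest at 53.1 ± 0.531 TPM, followed by IFNAR1 at 40.4 ± 4.90, IL10RB at 18.1 ± 1.13, IFNGR1 at 16.6 ± 0.606 and IFNAR2 at 11.4 ± 0.614 (SD, n = 3). The ranges of IL10RB and IFNGR1 overlapped, and the other neighbours in this order did not. IFNLR1, the chain particular to the lambda receptor, had 6 counts in 1 library, siELMO1 replicate 3 at 24 h, and 0 in the other 17. Thus the lambda interferons were detected and 1 of their receptor's chains, IL10RB, was detected, while the other was not detectable at this depth in 17 of 18 libraries.

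Of the 7 genes that passed the filter, all 7 passed the test for poly(I:C) in Mock, 6 higher and 1 lower, where 60.3% of all 15167 genes tested passed, 30.7% higher and 29.6% lower. In siNT 4 passed, all higher, against 53.8% of all genes (28.6% higher, 25.2% lower), and in siELMO1 6 passed, all higher, against 54.9% (28% higher, 26.9% lower). IFNB1 and IFNL1 entered the test through the 24 h libraries alone and had to differ, so these counts are read through the 5 receptor genes: 5, 2 and 4 passed. At 0 h, 3 of 5 receptor genes passed between siELMO1 and siNT (62.6% of all genes), 2 between siELMO1 and Mock (50.2%) and 4 between siNT and Mock (51.6%). At 24 h, 1 of 5 passed in each comparison, where 52.6% of all genes passed for siELMO1 against siNT, 43.6% for siELMO1 against Mock and 50.2% for siNT against Mock. No difference between these shares and those of all genes was tested. With the counts of an overlapping gene added, as described for IL10RB, IL10RB passed in all 3 comparisons at 24 h and IFNAR2 in none.

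**Figure D2:**
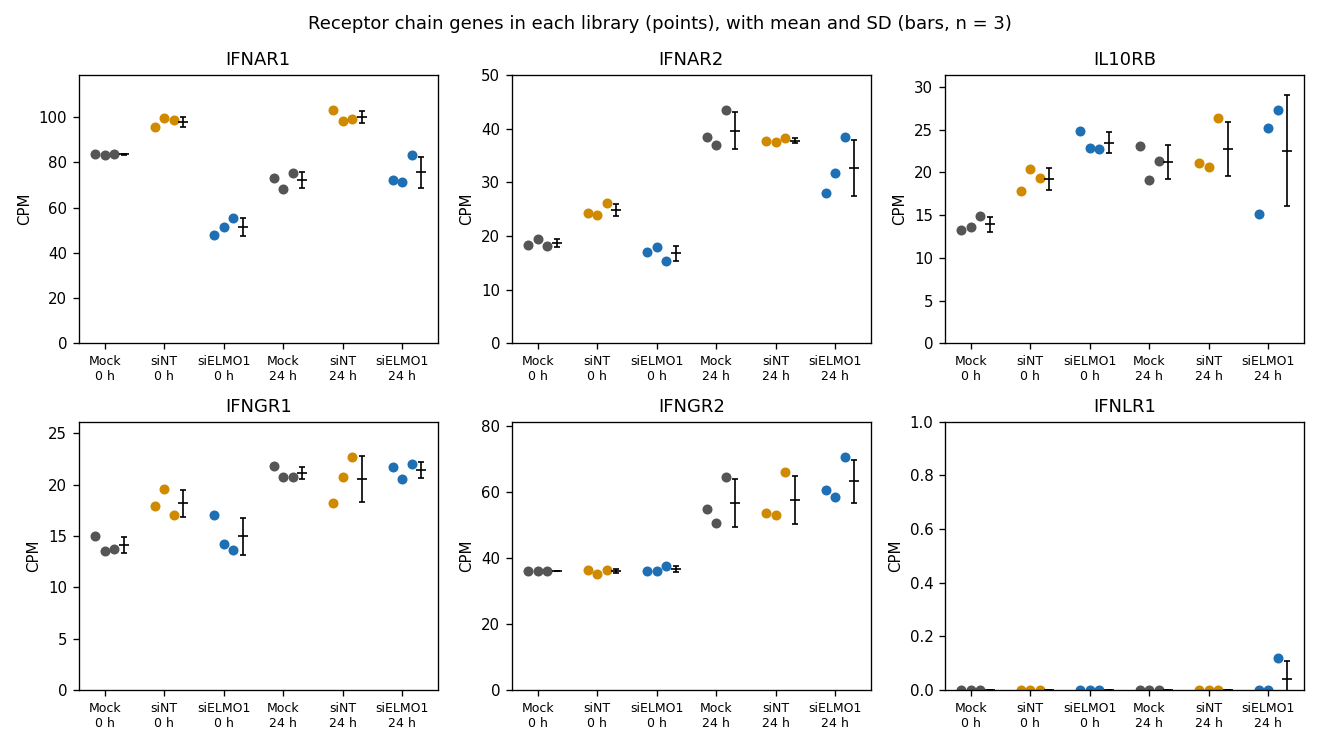
Level of the 6 receptor genes in CPM in each of the 18 libraries, 1 point per library, with the mean and SD of each group (bars, n = 3) beside them. IFNAR1 is lowest in siELMO1 at 0 h, IFNAR2 and IFNGR2 lie higher in every 24 h group than in any 0 h group, and IFNLR1 is at 0 in all but 1 library.

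IFNAR1, the chain of the type I receptor that recruits TYK2, was the receptor gene that differed most between transfections. It lies at chr21:33324387-33359864 on the plus strand (ENSG00000142166.15), and IFNAR2, IL10RB and IFNGR2 lie on the same strand of chromosome 21 beside it. At 0 h it read 83.6, 83.3 and 83.5 CPM in Mock, 95.5, 99.6 and 98.6 in siNT, and 47.8, 51.3 and 55.6 in siELMO1. All siELMO1 libraries were below all others. At 24 h the values were 72.9, 68.1 and 75.2 CPM in Mock, 103, 98.1 and 98.9 in siNT, and 72.1, 71.2 and 83.3 in siELMO1. Here Mock and siELMO1 overlapped and siNT stood above both.

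At 0 h IFNAR1 was 1.90-fold lower in siELMO1 than in siNT (log2 -0.93 ± 0.06 SE, edgeR adjusted p = 5.67e-10) and 1.62-fold lower than in Mock (-0.70 ± 0.06, edgeR adjusted p = 4.62e-08). It was 1.17-fold higher in siNT than in Mock (0.23 ± 0.06, edgeR adjusted p = 0.00451). With poly(I:C) it fell in Mock (-0.21 ± 0.06, edgeR adjusted p = 0.00651) and rose in siELMO1 (0.55 ± 0.06, edgeR adjusted p = 7.35e-07). In siNT the difference was 0.03 with a 95% interval from -0.09 to 0.15 (edgeR adjusted p = 0.689).

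After poly(I:C) IFNAR1 was still 1.33-fold lower in siELMO1 than in siNT (-0.41 ± 0.06, edgeR adjusted p = 2.91e-05), and siNT was 1.39-fold above Mock (0.47 ± 0.06, edgeR adjusted p = 6.18e-06). Between siELMO1 and Mock the difference was 0.07, with a 95% interval from -0.05 to 0.19 (edgeR adjusted p = 0.409). So the order of IFNAR1 at 24 h, siNT above Mock, was the opposite of the order of IFNB1 and IFNL1 in those libraries. The division of IFNAR1 reads among its transcripts was unstable, with 1 of its transcripts of 557 codons, that of 6075 bases, at 69.1%, 4.16% and 44.7% of the gene's counts in the 3 Mock libraries at 0 h, so no transcript level is read.

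IFNAR2, the chain that binds type I interferon most tightly and carries the docking site for STAT2, rose with poly(I:C) in all transfections. The gene (ENSG00000159110.22) lies at chr21:33205282-33265675 on the plus strand. At 0 h it read 18.4, 19.5 and 18.2 CPM in Mock, 24.3, 24.0 and 26.2 in siNT, and 17.0, 18.0 and 15.3 in siELMO1. At 24 h it read 38.5, 36.9 and 43.5 CPM in Mock, 37.7, 37.4 and 38.2 in siNT, and 28.1, 31.6 and 38.4 in siELMO1. Every 24 h library was above every 0 h library.

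The poly(I:C) response of IFNAR2 was 2.12-fold in Mock (log2 1.08 ± 0.09 SE, edgeR adjusted p = 1.63e-08), 1.52-fold in siNT (0.61 ± 0.09, edgeR adjusted p = 2.55e-05) and 1.95-fold in siELMO1 (0.96 ± 0.09, edgeR adjusted p = 1.19e-07). At 0 h siNT was above Mock (0.41 ± 0.09, edgeR adjusted p = 0.00131) and siELMO1 below siNT (-0.57 ± 0.09, edgeR adjusted p = 4.52e-05), with siELMO1 and Mock apart by -0.16 (95% interval -0.34 to 0.03, edgeR adjusted p = 0.176). With the reads given to an overlapping gene added, which is described with IL10RB, that last difference was -0.30 and passed (edgeR adjusted p = 0.00219). At 24 h siELMO1 read lower than Mock (-0.28 ± 0.09, edgeR adjusted p = 0.0202), a call that ended with the same reads added (0.014, edgeR adjusted p = 0.893). It also ended without Mock replicate 3 (-0.21), siELMO1 replicate 1 (-0.18) or siELMO1 replicate 2 (-0.26), while the difference of -0.21 from siNT at 24 h (edgeR adjusted p = 0.0638) became -0.34 and passed without siELMO1 replicate 3. As IFNAR2 rose and IFNAR1 did not to the same extent, the TPM ratio of IFNAR1 to IFNAR2 went from 3.53 ± 0.257 to 1.36 ± 0.0504 in Mock. It went from 3.00 ± 0.141 to 1.91 ± 0.0575 in siNT and from 3.04 ± 1.11 to 1.82 ± 0.138 in siELMO1 (SD, n = 3). These ratios depend on the unstable division of IFNAR1 among transcripts and are not compared between transfections. By the length of its most abundant transcript alone, IFNAR1 at 0 h was 33.6 TPM in Mock, 36.8 in siNT and 19.7 in siELMO1. By all transcripts it was 40.4, 41.8 and 28.5 TPM.

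IFNAR2 is made as a long form of 515 codons, the signalling chain, and a short form of 331 codons. The transcript of the long form held 49.3% ± 7.44 of the gene's counts in Mock at 0 h and 53.5% ± 15.8 at 24 h, and that of the short form held 43.8% ± 8.69 and 33.6% ± 17.1 (SD, n = 3). The long form was ahead in 2 of 3 libraries of Mock and of siELMO1 at 24 h and the short form in the other, at 53.3% in Mock and 63.2% in siELMO1. In siNT the long form led in all 6 libraries, and in siELMO1 at 0 h the short form led in all 3. The long form's share at 0 h did not overlap between siNT (47.5 to 61.3%) and siELMO1 (37.0 to 46.3%), a difference that was not tested. The depth behind these shares was 719 to 1752 counts of IFNAR2 per library at 0 h, lowest in siELMO1 (719 to 1250), and 1853 to 2542 at 24 h. The division of counts between the forms is an estimate.

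**Figure D3:**
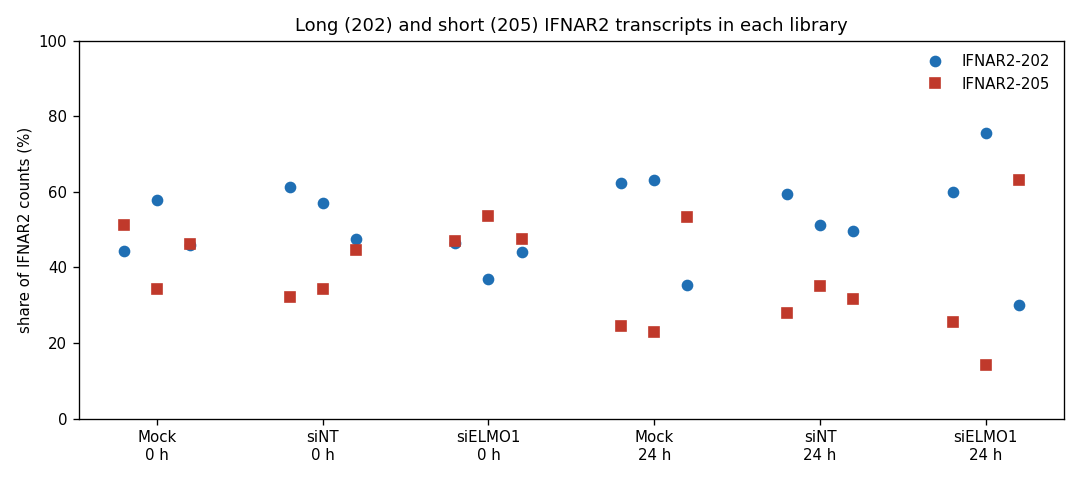
Share of IFNAR2 counts (%) given to the transcripts of the long and the short form, as named in the legend, in each of the 18 libraries, by transfection and time. The lead changes between libraries of Mock at both times and of siELMO1 at 24 h, with the short form at 63.2% in 1 siELMO1 library at 24 h and at 14.1% in another.

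IL10RB, the chain shared by the receptors for interferon lambda, IL10 and IL22, lies directly after IFNAR2 at chr21:33266367-33311420 on the plus strand (ENSG00000243646.11). A readthrough gene, IFNAR2-IL10RB (chr21:33229892-33297160), overlaps both on the same strand, and reads from shared exons can be given to either. At 0 h IL10RB read 13.3, 13.6 and 14.9 CPM in Mock, 17.8, 20.4 and 19.4 in siNT, and 24.9, 22.8 and 22.7 in siELMO1, with no overlap between groups. At 24 h it read 23.1, 19.2 and 21.4 CPM in Mock, 21.1, 20.7 and 26.4 in siNT, and 15.1, 25.1 and 27.3 in siELMO1. The lowest of the 24 h values belonged to siELMO1 replicate 1, where the readthrough gene had 1139 counts beside 1000 for IL10RB, 53.2% of their sum, whereas the other 17 libraries gave the readthrough gene 0 to 307 counts.

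By its own counts IL10RB was higher in siELMO1 than in Mock at 0 h (log2 0.75 ± 0.16 SE, edgeR adjusted p = 0.000573) and in siNT than in Mock (0.46 ± 0.15, edgeR adjusted p = 0.0186), the latter no longer passing without Mock replicate 1 (0.39), Mock replicate 2 (0.41) or siNT replicate 2 (0.42). IL10RB in siELMO1 differed from siNT at 0 h by 0.29 (95% interval -0.01 to 0.59, edgeR adjusted p = 0.109), which did not pass. With the readthrough counts added, IL10RB differed there by 0.23 and passed (edgeR adjusted p = 0.00593). By its own counts again, IL10RB rose with poly(I:C) in Mock (0.60 ± 0.15, edgeR adjusted p = 0.00267), while the differences in siNT (0.24, 95% interval -0.06 to 0.55, edgeR adjusted p = 0.193) and siELMO1 (-0.06, -0.36 to 0.24, edgeR adjusted p = 0.754) did not pass, that in siNT passing without siELMO1 replicate 1 at 24 h (0.24, edgeR adjusted p = 0.039). With the readthrough counts added, the spread at 24 h in siELMO1 shrank from 6.49 to 1.29 CPM (SD, n = 3). The summed level was 17.0 ± 1.29 CPM in Mock, 20.8 ± 0.570 in siNT and 24.3 ± 1.47 in siELMO1 at 0 h, and 22.3 ± 1.35, 25.9 ± 1.01 and 31.0 ± 1.29 CPM at 24 h.

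On the summed counts the order siELMO1, siNT, Mock held at both times, and poly(I:C) raised the level by log2 0.39 ± 0.07 in Mock, 0.32 ± 0.07 in siNT and 0.35 ± 0.07 in siELMO1 (SE, edgeR adjusted p = 6.99e-05, 0.000567 and 0.000259). At 24 h the sum was higher in siELMO1 than in Mock by 0.47 ± 0.07 (edgeR adjusted p = 1.6e-05) and than in siNT by 0.26 ± 0.07 (edgeR adjusted p = 0.00349). By IL10RB's own counts these differences were 0.09 and -0.02 and did not pass (edgeR adjusted p = 0.688 and 0.944). The sum also takes in any readthrough reads that lie in exons of IFNAR2. Each readthrough count was added to IFNAR2 as well, so the IFNAR2 sum likewise takes in any that lie in exons of IL10RB.

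**Figure D4:**
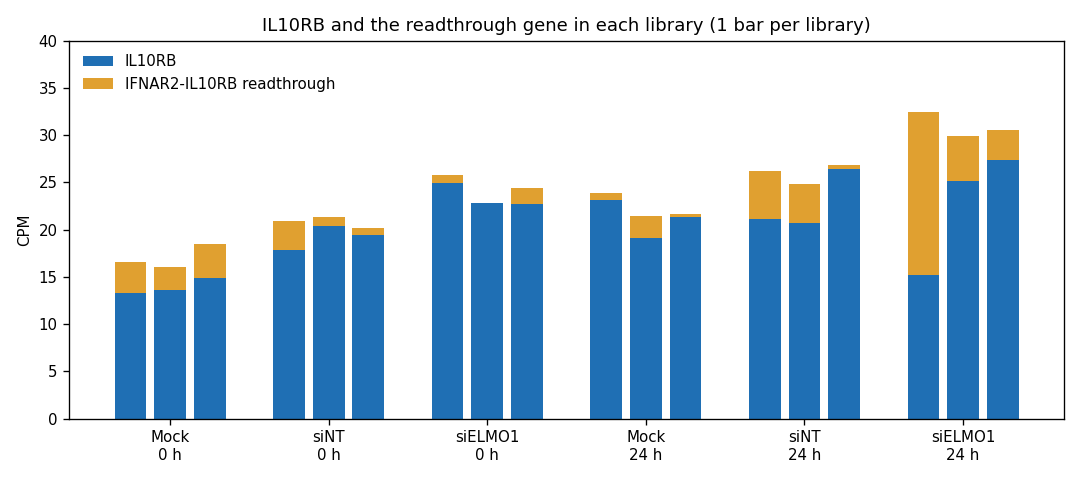
CPM of IL10RB (lower part of each bar) and of the readthrough gene IFNAR2-IL10RB (upper part) in each of the 18 libraries, 1 bar per library. The summed bars of a group are close to each other, including siELMO1 at 24 h, where 1 library gives 53.2% of the sum to the readthrough gene.

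The interferon gamma receptor genes rose with poly(I:C) in at least 2 of 3 transfections, while IFNG itself had a count of 0 in every library. IFNGR2, the chain that recruits JAK2, lies at chr21:33403413-33479348 on the plus strand (ENSG00000159128.16) and overlaps TMEM50B on the other strand. It read 35.3 to 37.7 CPM over the 9 libraries at 0 h and 50.7 to 70.8 CPM at 24 h, without overlap. The response was 1.57-fold in Mock (log2 0.65 ± 0.09 SE, edgeR adjusted p = 7.85e-06), 1.60-fold in siNT (0.68 ± 0.09, edgeR adjusted p = 6.63e-06) and 1.73-fold in siELMO1 (0.79 ± 0.09, edgeR adjusted p = 1.05e-06). No difference between transfections passed at either time, and the largest was 0.16 between siELMO1 and Mock at 24 h (95% interval -0.02 to 0.34).

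IFNGR1, the chain that binds interferon gamma, lies alone at chr6:137197483-137219449 on the minus strand (ENSG00000027697.16). At 0 h it read 15.0, 13.6 and 13.8 CPM in Mock, 17.9, 19.6 and 17.0 in siNT, and 17.0, 14.2 and 13.6 in siELMO1. At 24 h it read 21.8, 20.7 and 20.8 CPM in Mock, 18.2, 20.8 and 22.7 in siNT, and 21.7, 20.6 and 22.1 in siELMO1. The 24 h groups overlapped one another, and siNT overlapped its own 0 h libraries.

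IFNGR1 rose 1.49-fold in Mock (0.58 ± 0.09 SE, edgeR adjusted p = 2.34e-05) and 1.43-fold in siELMO1 (0.52 ± 0.09, edgeR adjusted p = 9.95e-05), and in siNT the difference was 0.18 (95% interval 0.00 to 0.35, edgeR adjusted p = 0.1), which became 0.26 and passed without siNT replicate 1 at 24 h. At 0 h it was higher in siNT than in Mock (0.36 ± 0.09, edgeR adjusted p = 0.00243) and lower in siELMO1 than in siNT (-0.28 ± 0.09, edgeR adjusted p = 0.0125), the second of which rested on single libraries: it was -0.22, -0.24 and -0.21 without siNT replicate 2, siELMO1 replicate 2 or siELMO1 replicate 3 and no longer passed.

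**Figure D5:**
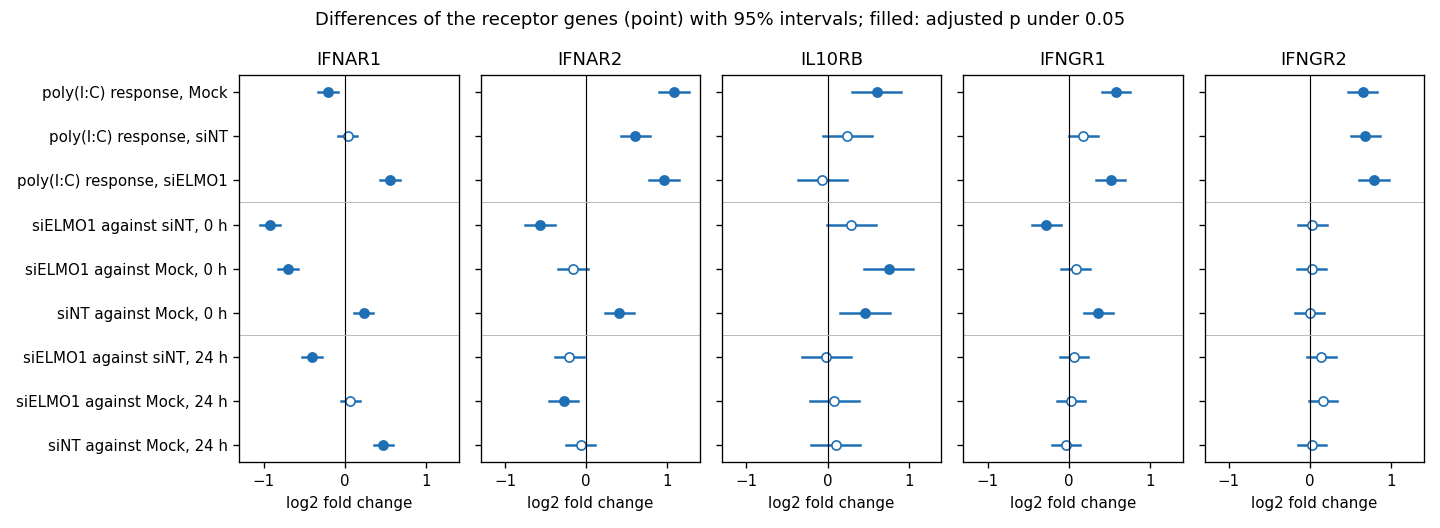
Log2 fold change of the 5 receptor genes that passed the filter (points, with 95% intervals as lines) in the 3 poly(I:C) responses and the 6 comparisons between transfections. Filled points passed adjusted p under 0.05. IFNAR1 departs most between transfections at 0 h, -0.93 for siELMO1 against siNT, and IFNGR2 differs only between times.

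Tests of the difference between poly(I:C) responses could be read only for the receptor genes. IFNB1 and IFNL1 were at or below 3 counts in every library at 0 h, too few to measure a response against. Between siELMO1 and siNT, 3 of 5 passed, where 34.5% of all genes did. The largest was IFNAR1, whose response was higher in siELMO1 by log2 0.52 ± 0.09 (SE, edgeR adjusted p = 0.000168). IFNAR2 (0.36 ± 0.13, edgeR adjusted p = 0.0435) and IFNGR1 (0.34 ± 0.13, edgeR adjusted p = 0.0474) passed narrowly. Between siNT and Mock 3 of 5 passed (31% of all genes), with IFNAR2 (-0.48 ± 0.13, edgeR adjusted p = 0.00957) and IFNGR1 (-0.40 ± 0.13, edgeR adjusted p = 0.0221) lower in siNT and IFNAR1 higher (0.24 ± 0.09, edgeR adjusted p = 0.0411). Between siELMO1 and Mock 2 of 5 passed (28.3% of all genes), IFNAR1 (0.76 ± 0.09, edgeR adjusted p = 4.69e-06) and IL10RB (-0.67 ± 0.22, edgeR adjusted p = 0.0293), and the difference of IL10RB was -0.05 (edgeR adjusted p = 0.766) with the readthrough counts added. Leaving out 1 library at a time ended the call of IFNGR1 between siELMO1 and siNT in 14 of 18 cases and that of IFNAR2 in 13, whereas those of IFNAR1 against siNT and against Mock held in all. Between siNT and Mock it ended the call of IFNAR1 in 7 cases and of IFNGR1 in 5, and between siELMO1 and Mock that of IL10RB in 4. With the readthrough counts added to IFNAR2, its difference in response was 0.59 between siELMO1 and siNT (edgeR adjusted p = 0.000235), -0.27 between siNT and Mock (0.0539) and 0.32 between siELMO1 and Mock (0.0271). In siELMO1 replicate 1 at 24 h these counts took IFNAR2 from 28.1 to 45.3 CPM. The spread of IFNAR2 in siELMO1 at 24 h went only from 5.24 to 4.48 CPM (SD, n = 3). Whether these reads belong to IFNAR2 was not tested.

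Over the 18 libraries, which share 6 groups, the log2 levels of some genes ran close to those of a member. As a description, Pearson's r with IFNB1 was 0.994 for IFNL1 and for WARS1, an interferon-induced tRNA synthetase, and 0.993 for CFLAR, a caspase-8 regulator. For IFNL1 the closest genes were RETNLB (0.996), FGF2 (0.995) and IFNB1. IFNAR2 ran with DCP1A (0.976) and TMEM140 (0.972), IFNGR2 with LGALS9DP (0.980), LGALS9 (0.978) and IL18BP (0.976), and IFNGR1 with IL12RB1 (0.940), JAGN1 (0.935) and SBNO2 (0.934). IFNAR1 ran with STARD7 (0.939), GID4 (0.938) and GTF3C4 (0.937). IL10RB had no gene as close, E2F5 (0.829), ALDH1A1 (0.814) and SCNM1 (0.814) being the nearest.

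The steps before and after the interferons moved in these libraries too. Of 16 tested genes of interferon induction, from TLR3 and the RIG-I-like sensors to the IRFs, 13 were higher and 1 lower with poly(I:C) in Mock, 13 higher in siNT and 15 higher in siELMO1. Of all genes tested, 30.7%, 28.6% and 28% were higher and 29.6%, 25.2% and 26.9% lower in Mock, siNT and siELMO1. The median log2 responses of the 16 induction genes were 1.59, 1.02 and 1.44 and the medians over all genes were within 0.05 of 0. IFIH1, which encodes the sensor MDA5, rose by 5.40, 4.59 and 5.49, and DHX58 (LGP2) by 6.83, 5.08 and 5.27. All 7 genes directly below the receptors, the JAKs, the STATs and IRF9, rose in Mock and in siELMO1 and 6 rose in siNT, among them STAT2 by 3.67, 2.96 and 2.99.

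Of 18 tested targets of type I and III interferon all 18 rose in each transfection (of all genes, 30.7%, 28.6% and 28% did), with medians of 6.16 in Mock, 5.48 in siNT and 6.13 in siELMO1. At 24 h 17 of them were lower in siNT than in Mock (median -0.58) and 13 were higher in siELMO1 than in siNT (median 0.41), while 1 was higher and 3 were lower in siELMO1 than in Mock (median -0.15). Of all genes, 24.9% were lower and 25.2% higher in siNT than in Mock, 26% higher and 26.5% lower in siELMO1 than in siNT, and 21.6% higher and 22% lower in siELMO1 than in Mock. MX2, an antiviral GTPase, stood at 346 ± 30.1 CPM in Mock, 235 ± 54.6 in siNT and 334 ± 29.9 in siELMO1 at 24 h, and RSAD2 (viperin) at 358 ± 35.5, 109.7 ± 28.9 and 512 ± 66.2 (SD, n = 3). Whether these targets differed less between transfections than IFNB1 was not tested.

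Of 13 tested genes known as targets of interferon gamma, 10 rose in each transfection and 2, 2 and 1 fell in Mock, siNT and siELMO1, with medians of 3.49, 2.02 and 2.95. Of all genes 30.7%, 28.6% and 28% rose and 29.6%, 25.2% and 26.9% fell. Among the 13 genes, 2 in Mock, 2 in siNT and 3 in siELMO1 were at or below 3 counts in all 0 h libraries of that transfection. Such genes could hardly fall, and their rises are not read as support. CXCL10, a chemokine gene that type I interferon also induces, was at 0 in all 0 h libraries and at 29.2 ± 5.36, 7.59 ± 1.29 and 29.9 ± 9.49 CPM at 24 h in Mock, siNT and siELMO1. Of 8 tested genes that damp the receptors, 6 rose and 1 fell in Mock, and 5 rose and 1 fell in siNT and in siELMO1. USP18, which binds IFNAR2 and blocks its signal, rose by log2 3.19, 3.84 and 3.74. Of 5 other receptor genes of the IL10 family only IL22RA1 and IL20RB passed the filter, and IL22RA1, the partner of IL10RB in the IL22 receptor, rose by 3.39, 1.49 and 3.92.

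ELMO1, the targeted gene, read 2.98 to 3.04 CPM in Mock, 2.66 to 3.32 in siNT and 0.299 to 0.419 in siELMO1 at 0 h, and 1.52 to 2.98, 2.98 to 3.58 and 0.155 to 0.359 at 24 h. Total counts were between 40.4 and 73.9 M per library. The first siELMO1 library at 0 h stood apart from the other two, with a chi-square per degree of freedom of 70.9 and 79.1 against 10.2 to 29.2 for all other pairs of replicates. Without it IFNAR1 differed by -0.87 between siELMO1 and siNT at 0 h and no call given here changed. The summed level of 10 endothelial markers was 1547 to 3100 CPM over the 18 libraries and that of 8 epithelial markers 842 to 2223 CPM, 3 of the latter being at 0 throughout. The endothelial sum was higher in siELMO1 at 0 h (2852 to 3095 CPM) than in Mock (2184 to 2289) and siNT (2167 to 2253). The epithelial sum was higher there too, at 2100 to 2223 CPM in siELMO1, 1516 to 1538 in Mock and 1879 to 1911 in siNT. IFNAR1 was lowest in those siELMO1 libraries, and the part of the markers in that difference was not tested. At 24 h the endothelial sum was 1547 to 1922 CPM in Mock, 2108 to 2298 in siNT and 2577 to 3100 in siELMO1. The epithelial sum was then 842 to 861, 1010 to 1056 and 1098 to 1314 CPM, below its 0 h level in each transfection. The part of these shifts in the poly(I:C) responses was not tested either. The sum of 5 leukocyte markers never passed 0.592 CPM. Of 3 markers of plasmacytoid dendritic cells, the specialised makers of interferon, 2 were at or below 3 counts in every library, and the third, IL3RA, which endothelium also expresses, carried a sum of at most 2.27 CPM that was higher at 24 h (1.23 to 2.27) than at 0 h (0.0752 to 0.255).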

How the data were processed

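RNA from EA.hy926 cells was sequenced with a stranded mRNA kit in 18 libraries, 3 for each of 6 groups given by the sample titles. The authors aligned reads with STAR to GRCh38, assembled them with StringTie on GENCODE v44 and deposited estimated counts per gene and transcript made from coverage. The totals exceed the read pairs sequenced, so a pair gave more than 1 count, taken as 2 where a bound needs it. Versions, and whether counting used strand, are not given in the sources used here. The study calls the 3 libraries of a group biological replicates without saying whether they were separate cultures or wells of 1, so p-values measure the spread between these libraries. Total counts were between 40.4 and 73.9 M per library, so that 3 counts are 0.0383 to 0.0752 CPM.

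Counts, already whole, were tested with edgeR 4.0.16 (R 4.3.3, quasi-likelihood, TMM scaling) on all 18 libraries, after the study's filter of at least 100 counts in total and a CPM of at least 1 in 1 library, which left 15167 genes, 7 of the 10 members among them. The 12 comparisons were adjusted by the Benjamini-Hochberg method over all genes, and adjusted p under 0.05 was the threshold. IFNL2, IFNL3 and IFNLR1, below the filter, had exact two-sided permutation tests. TPM was computed from transcript counts and lengths. The script was tested on simulated data. The members and gene lists were chosen with earlier results of these data known.

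The genes named are the 10 members, ELMO1, overlapping genes, up to 2 genes per list and poly(I:C) response with the largest change, and for each member with a call the 3 genes best correlated with it, of which 1 is not reported here. RSAD2 and other list genes are given in all transfections once named in one. Alternatives were limma-voom 3.58.1, DESeq2 1.42.0, other scalings and filters, a fit on the compared groups alone, counts of overlapping or near-identical genes summed, a replicate block, and each library left out. Replicate numbers in the titles were checked for pairing by the correlation of deviations from group means. They passed 0.1 for all pairs in 2 of 15 pairs of groups, of which Mock and siNT at 24 h (0.232 to 0.298) are compared here, and that pairing comes from the data and not from a stated shared culture or day.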

Additional observations from a re-analysis of the deposited data

Results flagged for a closer look

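The responses of some receptor genes to poly(I:C) differed between transfections by the test of the difference itself (edgeR's interaction term). Between siELMO1 and siNT the log2 difference in response was 0.52 for IFNAR1, 0.36 for IFNAR2 and 0.34 for IFNGR1. Between siNT and Mock it was 0.24 for IFNAR1, -0.48 for IFNAR2 and -0.40 for IFNGR1. Between siELMO1 and Mock it was 0.76 for IFNAR1 and -0.67 for IL10RB. Of 27 alternatives, 21 changed the result of IFNGR1 and 18 that of IFNAR2 between siELMO1 and siNT, against 0 for IFNAR1. Between siNT and Mock, 8 changed that of IFNAR1, 7 that of IFNGR1 and 1 that of IFNAR2. Between siELMO1 and Mock, 8 changed that of IL10RB and 0 that of IFNAR1. IFNAR1 stood at 51.5 CPM in siELMO1 at 0 h, below the other groups. With the readthrough counts added, the IL10RB difference was -0.05.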

How the results depend on the processing

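Of 449 values recomputed under alternatives other than leaving out a library, 416 kept their direction and side of the threshold, 22 lost a call, 6 gained one and 5 reversed. With 1 library left out, 843 of 900 kept both, 52 lost a call, 4 gained one and 1 reversed. With overlapping and near-identical genes summed, 5 members in place of 3 passed at 24 h both for siELMO1 against siNT and for siNT against Mock. IL10RB's poly(I:C) response in siELMO1 was then 0.35, and IFNAR2 at 24 h differed in siELMO1 by 0.0053 from siNT and by 0.014 from Mock. IFNAR1's response in siNT was -0.0056 with library totals and -0.014 with upper-quartile scaling. Receptor genes passing for the response of siELMO1 against siNT numbered 1 in place of 3 with limma-voom, library totals, upper-quartile scaling, no filter or the compared groups alone. For siNT against Mock there was 1 in place of 3 with no filter, and for siELMO1 against Mock 1 in place of 2 with library totals, no filter or the compared groups alone. Over the libraries left out these counts ran from 1 to 3, 1 to 3 and 1 to 2, and IL10RB's response in siELMO1 from -0.22 to 0.16, the highest without siELMO1 replicate 1 at 24 h. The IFNAR1 level in Mock at 24 h was 26.7 TPM in place of 30.4 when gene counts were divided by the length of the most abundant transcript. In siELMO1 at 0 h it was 19.7 TPM in place of 28.5. Apart from the sums, the cause was not tested. With the replicate block, no call changed for siNT against Mock at 24 h, and the IFNGR1 difference in response between siELMO1 and siNT was 0.34 with an edgeR adjusted p of 0.0555. Depth limits IFNL2, IFNL3 and IFNLR1, whose counts never passed 43.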
